A study of Mus musculus with 12 samples.

Results

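HT-DNA 1 and cGAMP 1 were set against mock 1 and hpRNA 1, which makes 4 of the 12 RNA sequencing libraries of this study of mouse fibroblasts. The sides were chosen by the measured counts of all genes, across the labels: HT-DNA 1 was closest to cGAMP 1, and mock 1 to hpRNA 1. Every gene was thus used in choosing them, and every difference between them is given below as a description, with no test. By a noise ratio, in which 1 is counting noise alone, HT-DNA 1 and cGAMP 1 stood at 1.55 and mock 1 and hpRNA 1 at 1.83. Between the sides the ratio was 7.33 to 8.43. HT-DNA 1 and cGAMP 1 stood at 2.03 to 2.31 from mock 2 and hpRNA 2, and at 3.52 to 4.73 from HT-DNA 2 and cGAMP 2. Mock 1 and hpRNA 1 stood further from mock 2 and hpRNA 2, at 8.89 to 10.2. Libraries are named below by their labels.

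All 12 libraries come from L929, a single established line of mouse fibroblasts, with no change of genotype named. PolyA RNA was collected at 6 hours, from untreated cells for mock, after transfection of HT-DNA or hpRNA, and after cGAMP stimulation. The labels give no doses and do not spell out HT-DNA or hpRNA. Their field for the source names L929 for cGAMP only, and says mouse fibroblasts for the other 3. The number that ends each title is called number 1 or number 2 here. The labels say that transfections were duplicated, not that the cultures were separate, so the p-values below measure only the spread between libraries, which may be technical. HT-DNA 2, cGAMP 2, mock 2 and hpRNA 2 are used as the same contrast in libraries that the choice of sides did not use, and the libraries labelled as G3-YSD or HSV transfection only to set the scale.

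Cells sense DNA in the cytosol through cGAS, which makes cGAMP, and cGAMP activates STING. RNA in the cytosol is sensed by RIG-I and MDA5, which signal through MAVS. Both routes activate the kinase TBK1 and the factors IRF3 and NF-kB, which switch on type I interferon, chemokines and a first set of antiviral genes. Secreted interferon then acts through its receptor, the JAK kinases and a complex of STAT factors and IRF9 to induce the interferon-stimulated genes. This complex binds the interferon-stimulated response element, ISRE, a paired GAAA sequence in the promoters of many such genes.

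The windows before the start sites of Ifit1, Rsad2, Oasl1 and Ifit3, the 4 interferon-stimulated genes with the largest differences that have an entry in the RefSeq table (build GRCm38.p6), show how such promoters read beside that of Ifnb1, the gene of interferon beta. Each run is the 250 bases before the start, 5′ to 3′ on the gene's strand. Capitals mark matches, on either strand, to an ISRE core (GAAA, then 2 bases of any kind, then GAAA) in the 4 interferon-stimulated genes and to a kB motif (GGGA, then 2 bases of any kind, then TTCC) in Ifnb1. The positions are chr19:34640639-34640888 on the plus strand for Ifit1, chr12:26456453-26456702 on the minus strand for Rsad2 and chr5:114922990-114923239 on the plus strand for Oasl1. They are chr19:34583279-34583528 on the plus strand for Ifit3 and chr4:88522795-88523044 on the minus strand for Ifnb1.
Ifit1: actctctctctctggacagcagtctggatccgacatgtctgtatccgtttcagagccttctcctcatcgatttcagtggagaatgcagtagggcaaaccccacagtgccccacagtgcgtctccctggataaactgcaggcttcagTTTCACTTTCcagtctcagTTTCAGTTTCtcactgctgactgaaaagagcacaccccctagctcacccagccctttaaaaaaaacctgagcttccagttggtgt
Rsad2: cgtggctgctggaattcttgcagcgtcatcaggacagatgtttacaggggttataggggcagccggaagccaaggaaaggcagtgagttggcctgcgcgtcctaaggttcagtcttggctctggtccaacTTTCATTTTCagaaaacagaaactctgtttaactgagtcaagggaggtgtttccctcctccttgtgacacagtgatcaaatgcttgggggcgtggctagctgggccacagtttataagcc
Oasl1: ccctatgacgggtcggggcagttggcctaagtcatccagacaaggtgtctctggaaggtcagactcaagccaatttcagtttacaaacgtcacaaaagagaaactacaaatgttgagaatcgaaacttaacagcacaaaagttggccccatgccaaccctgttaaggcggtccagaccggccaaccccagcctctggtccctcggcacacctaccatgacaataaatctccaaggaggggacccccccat
Ifit3: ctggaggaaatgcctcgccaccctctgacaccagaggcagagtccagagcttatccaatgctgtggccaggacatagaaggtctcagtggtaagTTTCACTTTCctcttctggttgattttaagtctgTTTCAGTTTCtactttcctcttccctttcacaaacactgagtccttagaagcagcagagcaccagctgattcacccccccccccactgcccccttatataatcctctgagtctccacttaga
Ifnb1: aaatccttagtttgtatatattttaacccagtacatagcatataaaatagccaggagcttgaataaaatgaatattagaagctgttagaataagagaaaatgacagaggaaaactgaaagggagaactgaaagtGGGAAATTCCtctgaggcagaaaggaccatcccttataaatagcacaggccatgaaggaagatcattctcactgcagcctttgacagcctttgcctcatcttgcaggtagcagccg
The ISRE core matched at 104 and 85 bases before the start of Ifit1, at 156 and 122 before that of Ifit3 and at 120 before that of Rsad2. Oasl1 held no match to these letters in this window. Of all 17404 RefSeq windows of 250 bases before and 50 after a start, 560 held the ISRE core (3.22%) and 259 the kB motif (1.49%), and no match of one overlaps a match of the other in the printed runs. Only 46 of the 63 interferon-stimulated genes counted higher below had a window, under 80%, so a count of motifs over that set is void.

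Levels are CPM, counts scaled to library size, on one scale for all 12 libraries, and a difference is the mean log2 level in HT-DNA 1 and cGAMP 1 minus that in mock 1 and hpRNA 1. A gene was counted higher or lower where its difference was at least 1 on the log2 scale, both libraries of a side lay beyond both of the other, and its mean level was at least 1 CPM. Of 12664 genes with that level, 145 were counted higher (1.14%) and 45 lower (0.355%), and these shares are the background for every list below. The sides did not overlap, in either direction and at any size, for 8257 genes (65.2%). Total counts were 16844344 in mock 1, 16938176 in hpRNA 1, 18912400 in HT-DNA 1 and 18256490 in cGAMP 1. The 2 libraries with higher totals also detected more genes, 22550 and 22417 against 21776 and 21635. Mitochondrial transcripts took 2.52% and 2.49% of the counts in mock 1 and hpRNA 1, and 2.21% and 2.13% in HT-DNA 1 and cGAMP 1. The part of these shifts in the results was not tested.

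Type I interferon transcripts were few. Ifnb1 had 0 counts in mock 1 and in hpRNA 1, 13 in HT-DNA 1 and 7 in cGAMP 1. Both libraries of the higher side held counts and both of the lower side held none. The mean level of the higher side was 3.09 times a floor of 3 counts per library, with no allowance for counting error. Ifna4, an interferon alpha gene, had 0 counts in mock 1, 1 in hpRNA 1, 9 in HT-DNA 1 and 5 in cGAMP 1. All 19 type I and III interferon genes lay under 1 CPM, 11 of them at 0 in all 4 libraries, so none could be counted. Their summed level was 0.114 CPM in mock 1, 0.228 in hpRNA 1, 1.77 in HT-DNA 1 and 0.919 in cGAMP 1. The same sum was 18.7 CPM in HT-DNA 2 and 17.6 in cGAMP 2.

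Many genes that act after interferon had enough counts to be compared. Rsad2, which encodes the antiviral enzyme viperin (ENSMUSG00000020641, chr12:26442746-26456452), stood at 3.41 CPM in mock 1, 3.65 in hpRNA 1, 182 in HT-DNA 1 and 214 in cGAMP 1. Both libraries of the higher side lay far above both of the lower, with a difference of 5.76 on the log2 scale and a range of 5.59 to 5.92 over the 4 pairs of libraries. Cxcl10, a chemokine that draws activated T cells and has the largest difference of all named genes (ENSMUSG00000034855, chr5:92346638-92348889), stood at 1.70 CPM in mock 1, 1.37 in hpRNA 1, 123 in HT-DNA 1 and 138 in cGAMP 1. Its difference was 6.31, with a range of 6.08 to 6.53. Mx2, a dynamin-like antiviral GTPase, stood at 0.795 CPM in mock 1, 0.456 in hpRNA 1, 21.5 in HT-DNA 1 and 25.9 in cGAMP 1, a difference of 5.03. Isg15, the ubiquitin-like modifier, stood at 3.12 CPM in mock 1, 2.74 in hpRNA 1, 76.3 in HT-DNA 1 and 92.7 in cGAMP 1, a difference of 4.79. For each of the 12 named genes with the largest differences, which leave out predicted genes, cGAMP 1 was the highest of the 4 libraries.

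**Figure D1:**
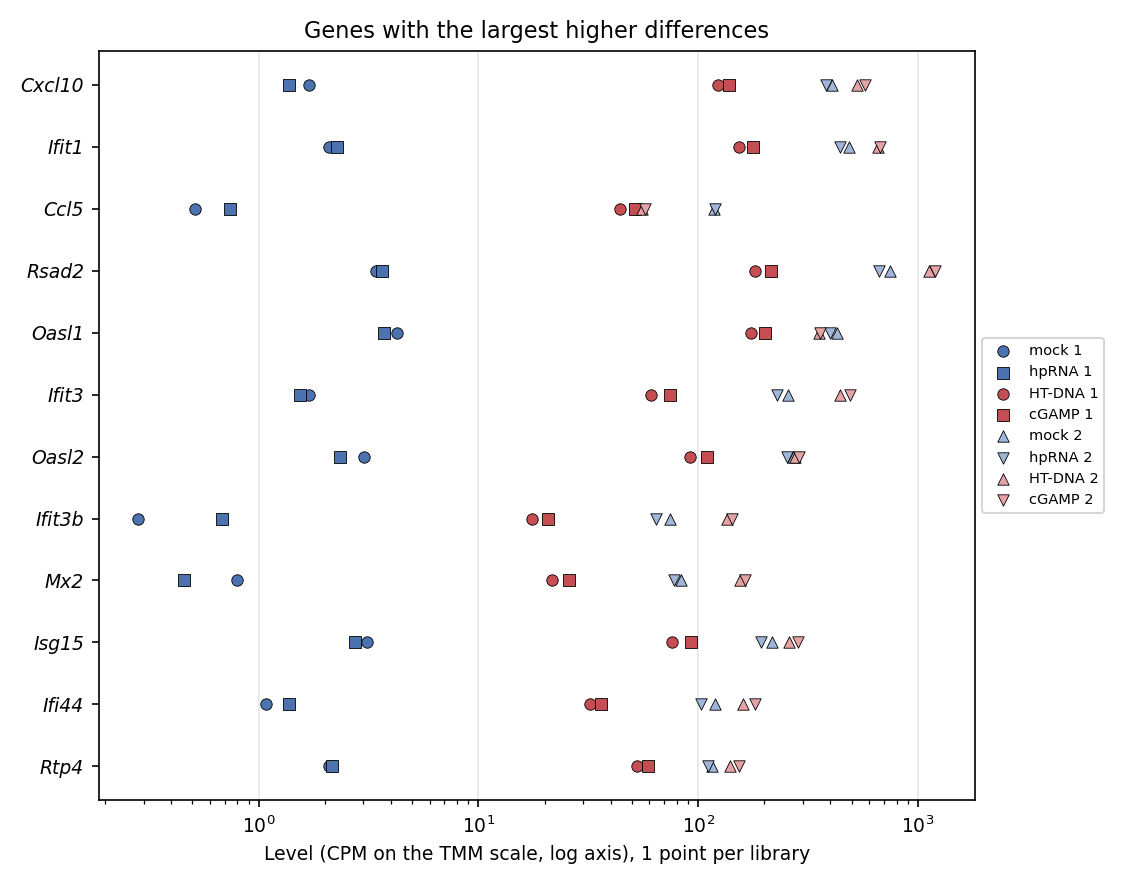
Level in CPM on a log axis of the 12 named genes with the largest higher differences, predicted genes left out, 1 point per library, in the number-1 libraries and the 4 number-2 libraries. For Rsad2, mock 1 and hpRNA 1 lie at 3.41 and 3.65, HT-DNA 1 and cGAMP 1 at 182 and 214, and all 4 number-2 libraries at 666 or above.

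Interferon-stimulated genes made up 63 of the 145 genes counted higher and 0 of the 45 counted lower. The union of 8 lists names 122 such genes, of which 120 are in the files, 95 had a mean of at least 1 CPM and 25 did not. Of the 95, 63 were counted higher and 32 neither higher nor lower, and the median difference was 1.81 against -0.01 over all genes. A gene silent in mock 1 and hpRNA 1 reached 1 CPM only through the other side, so this count describes the genes that passed and supports nothing beyond them. The summed level of the 120 genes was 2989.8 CPM in mock 1, 2998 in hpRNA 1, 6847 in HT-DNA 1 and 7362 in cGAMP 1. In bulk RNA, more responding cells and more RNA per responding cell cannot be told apart.

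The families differed in how far they lay above the lower side. All 4 Ifit genes with enough counts were counted higher, with a median of 5.17. Ifit1, which binds viral RNA that lacks a host cap (ENSMUSG00000034459, chr19:34640871-34650009), stood at 2.10 CPM in mock 1, 2.28 in hpRNA 1, 153 in HT-DNA 1 and 178 in cGAMP 1. Its 2 higher libraries were far from the 2 lower ones, a difference of 6.16. Ifit2 stood at 41.1 CPM in mock 1, 37.4 in hpRNA 1, 83.5 in HT-DNA 1 and 88.4 in cGAMP 1, and its difference was the smallest of the 4, 1.13. Ifit3 and its near-identical copy Ifit3b differed by 5.28 and 5.07. Reads of such copies may be shared between them by the counting, so each value is uncertain.

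The active enzymes among the oligoadenylate synthetases are switched on by double-stranded RNA. Of the 9 genes of their list, 8 were counted higher, with a list median of 2.93, and 1 differed by -0.50. Oasl1 and Oasl2, family members that resemble ubiquitin in part, differed by 5.51 and 5.18. Oas3 stood at 2.33 CPM in mock 1, 1.25 in hpRNA 1, 29.0 in HT-DNA 1 and 31.2 in cGAMP 1, a difference of 4.04. The Oas1 copies resemble each other, and their single values carry the same uncertainty as Ifit3.

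All 10 guanylate-binding proteins and immunity-related GTPases with enough counts were counted higher (median 3.38), while 8 further members lay under 1 CPM. These GTPases attack the membranes around intracellular pathogens. Irgm1 stood at 10.3 CPM in mock 1, 10.4 in hpRNA 1, 115 in HT-DNA 1 and 131 in cGAMP 1. Igtp stood at 1.42 CPM in mock 1, 0.969 in hpRNA 1, 23.6 in HT-DNA 1 and 24.5 in cGAMP 1. The pairs were clearly separate for both, with differences of 3.55 and 4.22. Gbp2 had only 3 and 4 counts in mock 1 and hpRNA 1 and reached 1.40 and 2.76 CPM in HT-DNA 1 and cGAMP 1.

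Among 6 genes of ISG15 conjugation 5 were counted higher: Isg15, its activating enzyme Uba7 (2.06), the ligases Herc6 (2.33) and Trim25 (1.37), and Usp18 (4.33), the protease that removes ISG15. The conjugating enzyme Ube2l6 differed by 0.40. Of 12 PARP and TRIM genes 10 were counted higher, with Trim34a at 3.77, Trim21, an antibody receptor of the cytosol, at 3.54 and Parp14 at 3.29. Trim34a had only 2 counts in mock 1 and 2 in hpRNA 1. Of 6 Schlafen genes 4 were counted higher, with Slfn2 at 2.77 and Slfn5 at 2.52. Direct antiviral effectors were divided, with 8 of 16 counted higher. Mx1, Mx2 and Rtp4 differed by 4.30, 5.03 and 4.63. Ifitm3, Bst2 (tetherin) and Pml, which block entry, release and nuclear steps of viruses, already stood at 127, 78.6 and 90.1 CPM in mock 1 and differed by 0.98, 0.81 and 0.91. Of the 33 further interferon-stimulated genes tested, 15 were counted higher, with Ifi44 at 4.68 and Xaf1 at 4.08.

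Sensors of RNA were counted higher in a larger share than sensors of DNA, 7 of 10 against 4 of 11, a contrast of lists that was not tested. The number-2 libraries had the reverse order. There 10 of 12 DNA-sensing and 6 of 10 RNA-sensing genes were called higher (edgeR), beside 4.64% of all genes. Median log2 fold changes of the 2 lists there were 0.59 and 0.28. Ddx58, which encodes RIG-I, stood at 6.59 CPM in mock 1, 7.87 in hpRNA 1, 98.1 in HT-DNA 1 and 107 in cGAMP 1. Ifih1, which encodes MDA5, stood at 1.36 CPM in mock 1, 1.48 in hpRNA 1, 27.8 in HT-DNA 1 and 31.5 in cGAMP 1. Both were low in the same 2 libraries and high in the other pair, by 3.81 and 4.27 on the log2 scale. Their regulator Dhx58 differed by 3.15, the endosomal receptor Tlr3 by 1.78, the kinase PKR (Eif2ak2) by 1.80 and the RNA editor Adar by 1.26. The adaptor Mavs differed by -0.07. The DNA sensor Cgas stood at 8.75 CPM in mock 1, 7.35 in hpRNA 1, 12.1 in HT-DNA 1 and 11.3 in cGAMP 1, a difference of 0.54, with the pairs apart but under the size counted. Tmem173, the gene of STING, stood at 19.7 CPM in mock 1, 21.9 in hpRNA 1, 18.8 in HT-DNA 1 and 21.2 in cGAMP 1. Its libraries overlapped between the sides. The 4 counted DNA-sensing genes were Zbp1 (3.46), a sensor that can trigger necroptosis, and the Ifi200 genes Mndal (2.27), Ifi203 (1.99) and Ifi204 (1.41). Zbp1 had only 1 count in mock 1 and 7 in hpRNA 1.

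The factors that carry the interferon signal split by role. Irf7, the factor that amplifies interferon alpha, stood at 3.07 CPM in mock 1, 2.68 in hpRNA 1, 30.7 in HT-DNA 1 and 37.1 in cGAMP 1. Irf9, the DNA-binding part of the STAT complex, stood at 12.8 CPM in mock 1, 12.1 in hpRNA 1, 78.5 in HT-DNA 1 and 81.2 in cGAMP 1. The sides were apart for both, by 3.50 and 2.67. Irf1 differed by 1.31, and Irf3, which is activated without being induced, by 0.09. Stat2, another part of that complex, stood at 25.6 CPM in mock 1, 23.1 in hpRNA 1, 98.4 in HT-DNA 1 and 106 in cGAMP 1, a difference of 2.06. The receptor and its kinases did not share this: Ifnar1 differed by -0.23, Ifnar2 by -0.06, Jak1 by -0.09 and Tyk2 by -0.31. Of the feedback inhibitors, Usp18 and Socs1 were counted higher, at 4.33 and 1.16, and Socs3 differed by less than 0.01 in size. In this list 4 of 15 genes were counted higher, and in the list of interferon regulatory factors 3 of 8.

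Chemokines held the other large differences. Ccl5, which attracts T cells and monocytes, stood at 0.511 CPM in mock 1, 0.741 in hpRNA 1, 44.2 in HT-DNA 1 and 51.7 in cGAMP 1. Both libraries of the higher side were over 40 CPM and both of the lower side under 1 CPM, a difference of 6.02 on the log2 scale. Ccl4 stood at 1.02 CPM in mock 1, 0.513 in hpRNA 1, 12.2 in HT-DNA 1 and 14.2 in cGAMP 1, a difference of 3.96. The monocyte chemokines Ccl2 and Ccl7 were abundant on the lower side too: Ccl2 stood at 291 CPM in mock 1, 297 in hpRNA 1, 669 in HT-DNA 1 and 711 in cGAMP 1, a difference of 1.23. In all, 6 of 11 chemokines and 2 of 10 cytokines were counted higher. The 2 cytokines were Il6, at 0.568 CPM in mock 1, 0.285 in hpRNA 1, 3.80 in HT-DNA 1 and 4.81 in cGAMP 1, and the alarmin Il33, at 2.16 on the log2 scale. Il6 had at most 10 counts in each library of the lower side.

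None of 20 NF-kB subunits and feedback genes was counted higher or lower, with a median of 0.16. Nfkbia, the inhibitor that NF-kB induces, stood at 90.9 CPM in mock 1, 96.1 in hpRNA 1, 104 in HT-DNA 1 and 103 in cGAMP 1. Tnfaip3, the gene of the inhibitor A20, stood at 9.03 CPM in mock 1, 9.41 in hpRNA 1, 15.8 in HT-DNA 1 and 16.3 in cGAMP 1. Both lay higher in HT-DNA 1 and cGAMP 1 without overlap, by 0.14 and 0.79. Of 28 immediate-early genes, the phosphatase Dusp5 alone was counted, at a difference of 1.00, with Egr1 at 0.90 and Fos at 0.53. Of 18 antigen presentation genes 1 was counted higher, H2-T24 at 3.31. The list had a median of 0.22, with 16 of 18 genes above 0. The class I heavy chain H2-K1 differed by 0.01, its light chain B2m by -0.01 and the peptide transporter Tap1 by 0.64.

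No gene was counted higher or lower among 22 stress response genes, 14 p53 targets, 24 hypoxia and glycolysis genes, 20 cholesterol synthesis genes and 30 genes of replication and mitosis. The hypoxia and glycolysis list had a median of 0.22, with 23 of 24 genes above 0 and Adm, Hk2 and Slc2a1 furthest, at 0.78, 0.68 and 0.67. The cholesterol list had a median of 0.24. Of 19 cell death genes only Zbp1, also a sensor, was counted higher. Most markers of the labelled fibroblasts were present: 16 of 20 had a mean of at least 1 CPM, and 3 lay at 0 in all 4 libraries. The summed level of the 20 was 4753 CPM in mock 1, 4961 in hpRNA 1, 4629 in HT-DNA 1 and 4773 in cGAMP 1. Of 21 markers of other cell types, 20 lay under 1 CPM and 7 at 0 in all 4 libraries. The macrophage marker Cd68 was the exception, at 80.4 CPM in mock 1, 85.7 in hpRNA 1, 86.7 in HT-DNA 1 and 91.2 in cGAMP 1. The reference genes Actb and Gapdh differed by 0.23 and 0.26.

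**Figure D2:**
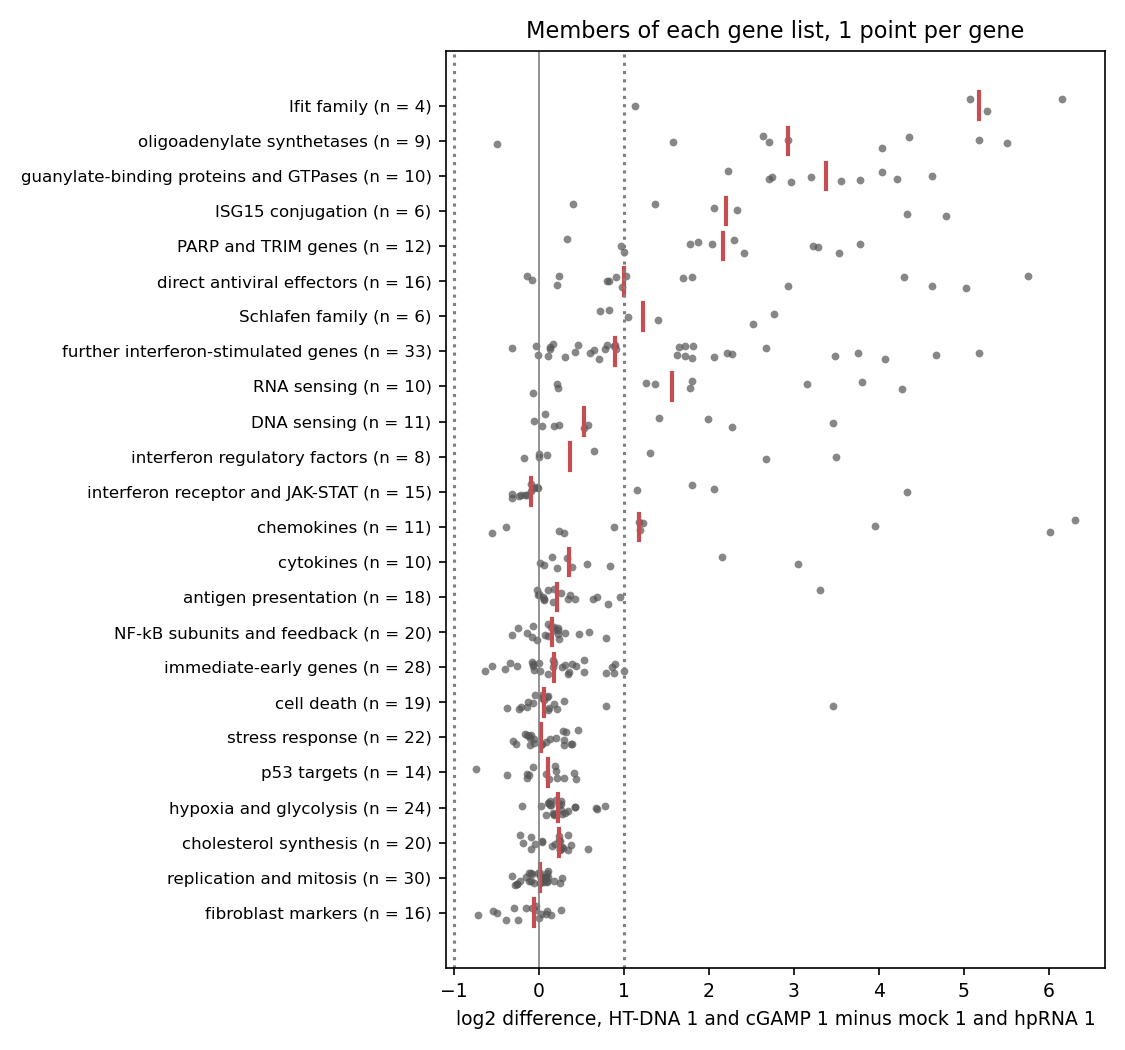
Difference on the log2 scale, HT-DNA 1 and cGAMP 1 minus mock 1 and hpRNA 1, for each member with a mean of at least 1 CPM of 24 gene lists, 1 point per gene, with the median as a red bar and dotted lines at 1 and -1. The Ifit, oligoadenylate synthetase and GTPase members spread up to 6.16, while the NF-kB, stress, p53 and replication members all lie between -1 and 1.

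The 45 genes counted lower had smaller differences, with a median of -1.25 and no member in any of the lists. Klhl24, which encodes a substrate adaptor of a ubiquitin ligase, stood at 26.4 CPM in mock 1, 28.8 in hpRNA 1, 6.40 in HT-DNA 1 and 7.35 in cGAMP 1. HT-DNA 1 and cGAMP 1 lay below both others, a difference of -1.99 on the log2 scale. Pdcd4, an inhibitor of translation initiation, stood at 17.8 CPM in mock 1, 17.3 in hpRNA 1, 4.84 in HT-DNA 1 and 4.43 in cGAMP 1, a difference of -1.90. Mxd4, a partner of Max that opposes Myc, stood at 41.7 CPM in mock 1, 42.1 in hpRNA 1, 18.0 in HT-DNA 1 and 16.7 in cGAMP 1, a difference of -1.27. Cdk19, a kinase of the Mediator complex, stood at 42.7 CPM in mock 1, 39.1 in hpRNA 1, 17.8 in HT-DNA 1 and 16.4 in cGAMP 1, a difference of -1.25. Mturn, Fbxl20, Klhdc7a and Ypel3 differed by -1.58, -1.52, -1.44 and -1.32. Leaving out 1 library makes the rule of no overlap easier to meet, so a count can rise for that reason alone. Without HT-DNA 1 the count of lower genes was 69, over 1.5 times the 45.

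The levels of the leading lower genes in the number-2 libraries were as follows. Klhl24 stood at 5.91 CPM in mock 2, 5.99 in hpRNA 2, 4.91 in HT-DNA 2 and 4.86 in cGAMP 2. Pdcd4 stood at 4.81 CPM in mock 2, 4.59 in hpRNA 2, 4.11 in HT-DNA 2 and 3.82 in cGAMP 2. Mxd4 stood at 13.8 CPM in mock 2, 15.1 in hpRNA 2, 15.8 in HT-DNA 2 and 13.9 in cGAMP 2. In these 3 genes mock 2 and hpRNA 2 lay far below mock 1 and hpRNA 1. Any comparison of the number-2 libraries with mock 1 and hpRNA 1 shares these 2 libraries with the differences above, so no share of genes is given for it.

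**Figure D3:**
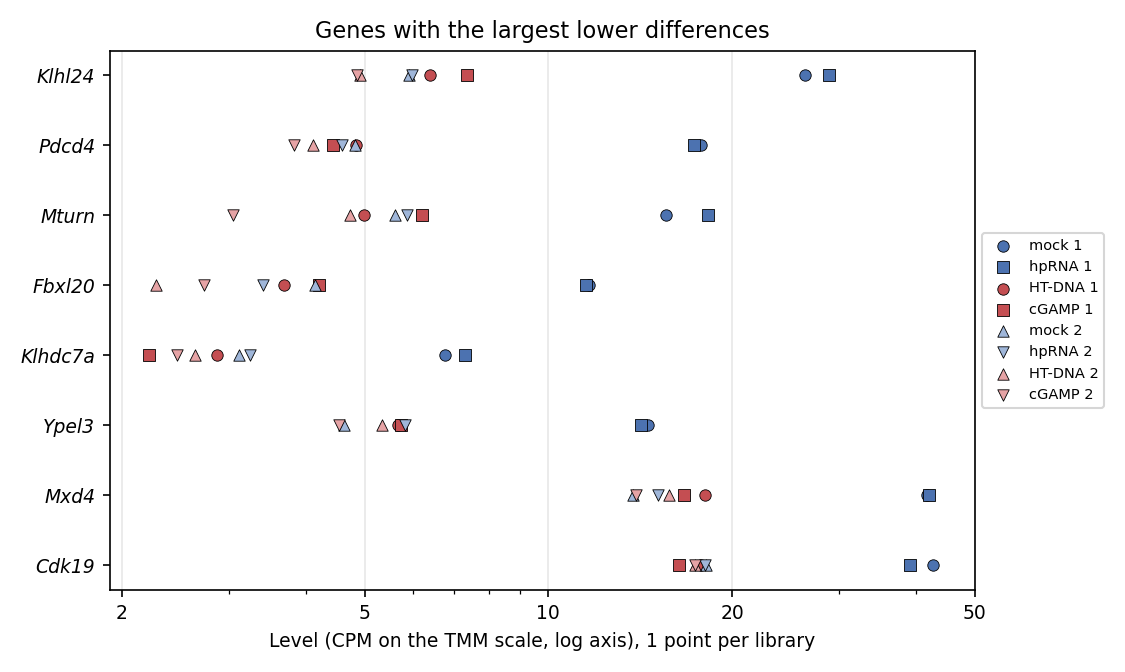
Level in CPM on a log axis of the 8 named genes with the largest lower differences, 1 point per library. For Klhl24, mock 1 and hpRNA 1 lie at 26.4 and 28.8, and the other 6 libraries between 4.86 and 7.35.

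The same contrast in the number-2 libraries, HT-DNA 2 and cGAMP 2 against mock 2 and hpRNA 2, was tested with edgeR's quasi-likelihood test at a Benjamini-Hochberg adjusted p of 0.05. It called 646 of 13918 genes higher (4.64%) and 419 lower (3.01%). These pairs are also the closest by counts, at noise ratios of 1.86 and 1.69, and each label has 1 library, so the spread used is that between labels and the p-values may be too small. A further fit took the replicate number as a block over all 8 libraries, including those described here. Its calls thus rest in part on the libraries that chose the sides, and are no independent test. It called 367 of 13844 genes higher and 226 lower. Of the 145 genes counted higher in the number-1 libraries 144 were tested in number 2, and 96 were called higher (66.7%), 5 lower and 43 neither. The 5 were Ccl5, Ccl4, Oasl1 and, named after their values were seen, Plat and Heatr9. The median log2 fold change of the 144 was 0.53 there, and the median difference of the 145 was 2.08 here. Of the 44 lower genes tested, 1 was called higher, 2 lower and 41 neither, a share of 4.55% called lower beside the 3.01% of all genes. Also named after their values were seen, these were Nfatc2 as higher and Txnip and Calcoco1 as lower. The median log2 fold change of the 44 was -0.07. In the blocked fit the log2 fold changes of the 8 named lower genes ran from -1.33 for Klhl24 to -0.69 for Mxd4. That fit holds the number-1 libraries, where these genes were chosen. No p-value is therefore given for them, and the fit gives no independent support. In number 2 alone Klhl24 stood at -0.28 and Mxd4 at 0.04 (edgeR adjusted p = 0.381 and 0.888).

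Interferon-stimulated genes were called higher in the number-2 libraries in 95 of 113 tested and lower in 1, Oasl1, beside 4.64% and 3.01% of all genes. In the blocked fit 69 of 108 were called higher, beside 367 of all 13844 genes in that fit. That count rests in part on the libraries that chose the sides, so it is no second test. Iigp1, a GTPase that targets the vacuole of Toxoplasma, stood at 1.08 CPM in mock 1, 2.17 in hpRNA 1, 21.9 in HT-DNA 1 and 23.4 in cGAMP 1. In number 2 it stood at 118 CPM in mock 2, 92.7 in hpRNA 2, 591 in HT-DNA 2 and 643 in cGAMP 2. Its difference was 3.78 here and its log2 fold change 2.56 there (standard error 0.0736, edgeR adjusted p = 3.62e-12). Rsad2 had a log2 fold change of 0.72 (standard error 0.0455, edgeR adjusted p = 1.40e-08), from levels of 744 CPM in mock 2, 666 in hpRNA 2, 1125 in HT-DNA 2 and 1196 in cGAMP 2. Ifnb1 had 30 and 11 counts in mock 2 and hpRNA 2 and 183 and 142 in HT-DNA 2 and cGAMP 2, a log2 fold change of 3.09 (standard error 0.272, edgeR adjusted p = 8.21e-07). The 11 of the 12 leading genes that were called in number 2, Ccl5 and Oasl1 as lower and 9 as higher, were all without a call in the blocked fit, at adjusted p from 0.0519 to 0.622 (edgeR). That fit also holds the number-1 libraries. Its log2 fold changes were larger, at 2.37 for Cxcl10, 2.49 for Ifit1, 2.62 for Rsad2 and 1.89 for Isg15, and those of Ccl5 and Oasl1 were above 0, at 0.86 and 2.01.

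Some genes that were flat in the number-1 libraries were called in number 2. Socs3, the feedback inhibitor of STAT3, stood at 51.1 CPM in mock 1, 53.4 in hpRNA 1, 51.7 in HT-DNA 1 and 52.5 in cGAMP 1, and at 47.4 CPM in mock 2, 47.9 in hpRNA 2, 117 in HT-DNA 2 and 111 in cGAMP 2. Its log2 fold change in number 2 was 1.26 (edgeR adjusted p = 1.11e-10). Casp4, a caspase that senses lipopolysaccharide, differed by 0.11 here, and its log2 fold change was 1.25 there (edgeR adjusted p = 3.65e-08). Stat3 differed by -0.02 here, and its log2 fold change was 0.71 there (edgeR adjusted p = 3.12e-09). Tmem173 had a log2 fold change of 0.64 in number 2 (edgeR adjusted p = 1.95e-05), and had no call with the replicate block, at 0.31 (edgeR adjusted p = 0.187). Antigen presentation had 15 of 20 genes called higher in number 2, beside 4.64% of all genes, with Tap1 at 0.76 and Psmb8, a subunit of the immunoproteasome, at 0.81. Whether these effects differ between the numbers was not tested.

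Other lists had calls in the number-2 libraries too, to be read beside the 4.64% of all genes called higher and 3.01% called lower. Of 14 chemokines 4 were called higher and 3 lower, with Cxcl9 and Cxcl11, which draw T cells like Cxcl10, at 2.82 and 2.06 and Cxcl1, a neutrophil chemokine, at -0.33. Of 20 cell death genes 9 were called higher and 1 lower, beside 4.64% and 3.01% of all genes, with the inflammatory caspase Casp1 at 1.04 and Bbc3, which encodes the pro-apoptotic PUMA, at -1.08. Of 24 hypoxia and glycolysis genes 14 were called lower and 0 higher, beside 3.01% of all genes, with the mitophagy receptor Bnip3 at -0.63 and the glucose transporter Slc2a1 at -0.31. In the number-1 libraries the same 2 genes differed by 0.03 and 0.67. Of 15 p53 targets 8 were called lower, with Gdf15, a stress cytokine, at -0.58 and the cell cycle inhibitor Cdkn1a at -0.38. Of 20 cholesterol synthesis genes 8 were called lower, and of 30 immediate-early genes 5 were called higher and 8 lower. Among the latter, Dusp1 had a log2 fold change of -0.96 and Junb, an AP-1 subunit, of 0.83.

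**Figure D4:**
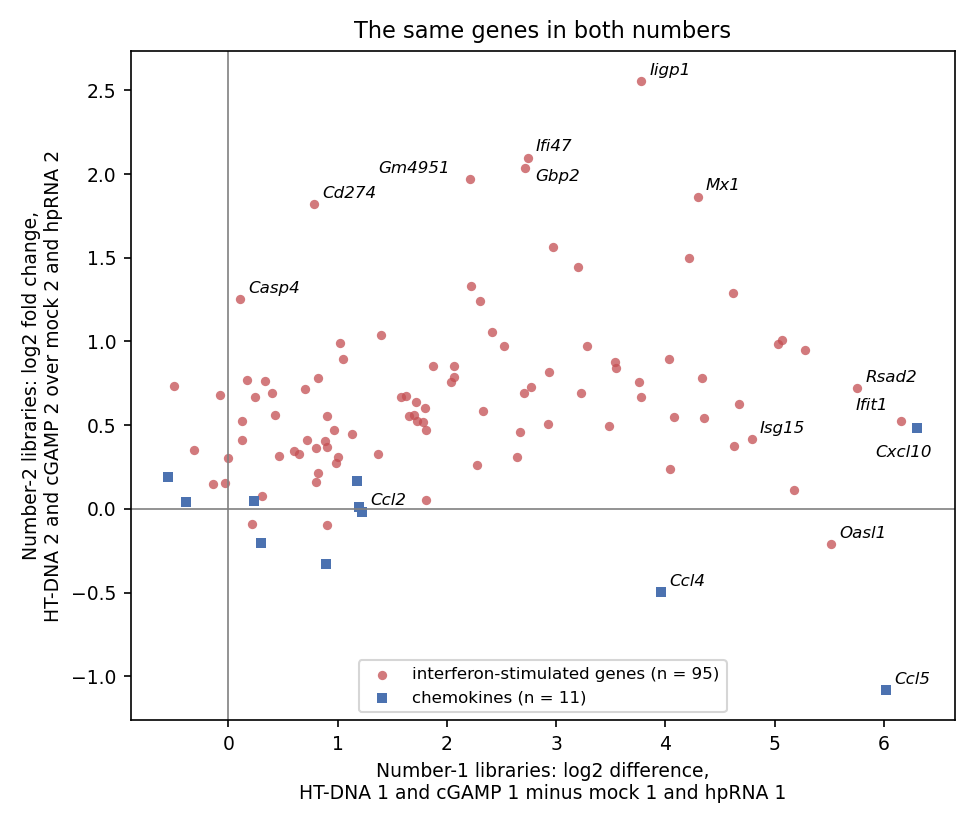
Number-2 log2 fold change (HT-DNA 2 and cGAMP 2 over mock 2 and hpRNA 2) against the number-1 log2 difference (HT-DNA 1 and cGAMP 1 minus mock 1 and hpRNA 1) for 95 interferon-stimulated genes (circles) and 11 chemokines (squares), 1 point per gene. Ccl5 lies at 6.02 and -1.08, Iigp1 at 3.78 and 2.56, and most other genes lie above 0 on both axes.

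The response in HT-DNA 1 and cGAMP 1 was the weaker one by level. It was not the weaker by the median difference of interferon-stimulated genes from the mock and hpRNA libraries of the same number. That median was 1.81 here (95 genes), and the median log2 fold change in number 2 was 0.67 (113 genes). These medians are of unlike measures and gene sets, and the contrast was not tested. Antigen presentation ran the other way, with medians of 0.22 here and 0.45 in number 2. Each of the 63 interferon-stimulated genes counted higher was lower in both libraries than in all 4 number-2 libraries, mock 2 and hpRNA 2 included, as were 1437 of 12664 genes overall (11.3%). Their level was a median of 27.2% of the mean of HT-DNA 2 and cGAMP 2, with quartiles of 16.9% and 33.6%, beside 101% over all genes. It was a median of 41.3% of that in mock 2 and hpRNA 2, and of 8.09% of that in G3-YSD 1 and HSV 1. The summed level of all listed interferon-stimulated genes was 13945 CPM in mock 2, 12746 in hpRNA 2, 19519.7 in HT-DNA 2 and 20490.4 in cGAMP 2. It was 45007 CPM in G3-YSD 1 and 45172 in HSV 1, and 3369 and 3318 in G3-YSD 2 and HSV 2. By this sum HT-DNA 1 and cGAMP 1 stood above mock 1, hpRNA 1, G3-YSD 2 and HSV 2. They stood below mock 2, hpRNA 2, HT-DNA 2, cGAMP 2, G3-YSD 1 and HSV 1.

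The shortfall was uneven over the genes. These percents are of the whole level, so a gene already high in mock 1 and hpRNA 1 can rank high with a small difference. Trim25 was nearest to the level of HT-DNA 2 and cGAMP 2, at 62.5%, with Oasl1 at 52.6%. Iigp1 was furthest, at 3.67%, with Ifi47 at 5.24%, Mx1 at 5.26%, Gbp2 at 6.23% and Igtp at 11.1%. Mx1 stood at 0.625 CPM in mock 1, 0.0570 in hpRNA 1, 6.71 in HT-DNA 1 and 7.40 in cGAMP 1, and at 39.8 CPM in mock 2, 34.0 in hpRNA 2, 123 in HT-DNA 2 and 145 in cGAMP 2. Among chemokines, Ccl5 reached 85.3% and Ccl2 69.8%, against 23.7% for Cxcl10 and 27.1% for the cytokine Il6. Ifnb1 was at 5.16%, on 13 and 7 counts.

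**Figure D5:**
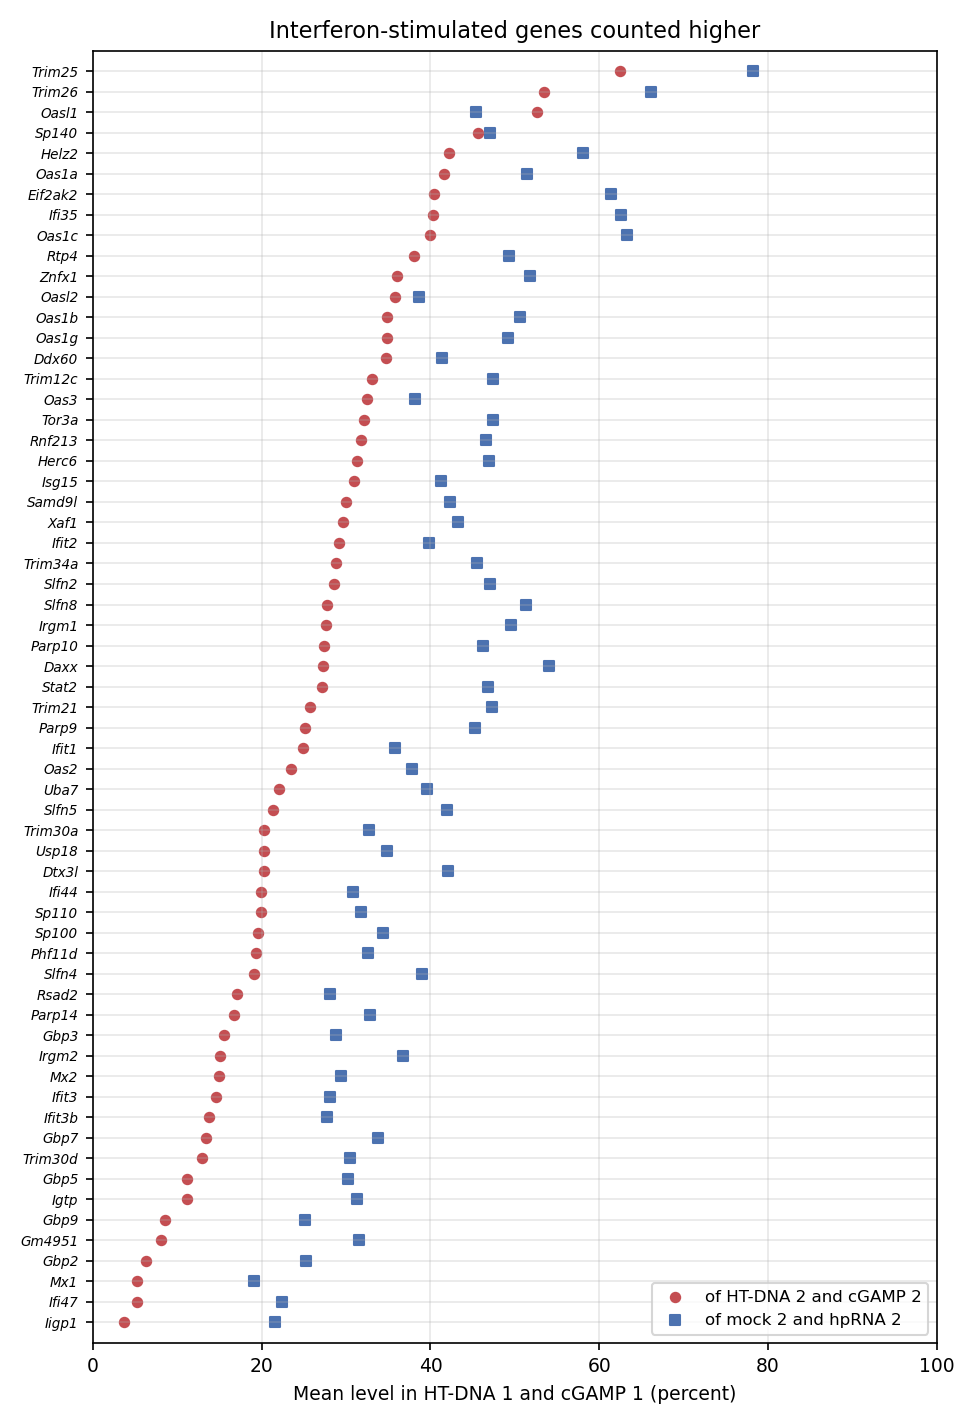
Mean level in HT-DNA 1 and cGAMP 1 as a percent of that in HT-DNA 2 and cGAMP 2 (circles) and in mock 2 and hpRNA 2 (squares), for 62 of the 63 interferon-stimulated genes counted higher, 1 row per gene. The circles run from 3.67% for Iigp1 to 62.5% for Trim25, and no point of either kind reaches 100%.

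HT-DNA 1 and cGAMP 1 carry different labels and differed little. Between them 36 of 12664 genes differed by at least 1 on the log2 scale (0.284%), and between mock 1 and hpRNA 1, 45 did (0.355%). Within these small differences cGAMP 1 was above HT-DNA 1 for 59 of the 63 interferon-stimulated genes counted higher, by a median of 0.15, beside 6586 of 12664 genes overall. Ifit3 stood at 60.9 CPM in HT-DNA 1 and 74.5 in cGAMP 1, and Usp18 at 46.8 and 58.2. Ifnb1 ran the other way, with 13 counts in HT-DNA 1 and 7 in cGAMP 1. HpRNA 1 was above mock 1 for 49 of 95 interferon-stimulated genes. In number 2, cGAMP 2 was above HT-DNA 2 for 55 of the same 63 genes, beside 6424 of the 12664 genes overall. Ifit3 stood at 442 CPM in HT-DNA 2 and 491 in cGAMP 2, and Ifnb1 had 183 counts in HT-DNA 2 and 142 in cGAMP 2. With 1 library per label in each number, no test of the labels was made on these differences.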

How the data were processed

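The authors deposited raw counts of reads per Ensembl gene, 1 file per library, with 54532 genes. HISAT2, HTSeq and mm10 are named without versions, per the submitters' processing notes. The gene annotation used for counting, and whether it used strand, is not given in the sources used here. Overlapping, antisense and near-identical genes may therefore share reads. GENCODE M21, of the same build, named 54495 genes and uses Tmem173 for STING.

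Levels, computed here, are CPM on TMM library sizes from all 12 libraries, and differences are of mean log2 CPM with a prior count of 2, which understates those of low genes. The 4 libraries hold 16844344 to 18912400 counts, so genes of few counts carry a wide counting error. The number-2 libraries were tested with edgeR 4.0.16 in R 4.3.3 on their 4 libraries alone, with its default filter. Each standard error is the size of the log2 fold change divided by the square root of the F statistic of the test. It is thus no measure of spread apart from the p-value. The fit had 2 residual degrees of freedom and a BCV (biological coefficient of variation) of 0.0315. Data were also simulated for the number-2 comparison (13720 genes), with this 1 BCV for every gene and changes only in genes of at least 5 CPM. Of genes set to differ by 0.5 on the log2 scale, 60 of 67 were called. So were 67 of 67 at 1 and 66 of 66 at 2, and 8 unchanged genes were called. Changed genes of lower level or wider spread were not covered, so these counts do not apply to them. DESeq2 1.42.0, size factors, prior counts, filters, a 1.5-fold size and leaving out each library were the alternatives. Same-numbered libraries deviated together: over 12718 genes the number-1 minus number-2 difference correlated at 0.493 to 0.852 between each of the 6 pairs of labels, a pairing seen in the data and not stated by the labels.

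The noise ratio divides the squared difference in counts by what counting noise alone would give, as a median over genes with at least 100 counts. Named genes are the 12 higher and 8 lower with the largest counted differences and a mean of at least 5 CPM on their higher side, without predicted genes and pseudogenes as judged by symbol alone (Mx2, annotated as a polymorphic pseudogene, stays), plus list members and 16 genes reported whatever their value. A few members and named genes are not reported here. Sides, lists and rules were chosen with earlier results of these data known.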

Additional observations from a re-analysis of the deposited data

Results flagged for a closer look

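Of 94 genes looked at, 4 differed in opposite directions in the 2 numbers, with both libraries of each side moving the opposite way, and for each the difference between the numbers was not tested. Ccl5, a chemokine, differed by 6.02 on the log2 scale in the number-1 libraries, and had a log2 fold change of -1.08 in number 2 (edgeR adjusted p = 2.50e-10), from levels of 118 CPM in mock 2, 119.8 in hpRNA 2, 55.4 in HT-DNA 2 and 57.0 in cGAMP 2. It was thus higher in mock 2 and hpRNA 2 than in HT-DNA 2 and cGAMP 2. Ccl4, another chemokine, differed by 3.96 and then by -0.50 (edgeR adjusted p = 0.00158), at 27.3 CPM in mock 2, 31.9 in hpRNA 2, 21.7 in HT-DNA 2 and 20.2 in cGAMP 2. Oasl1 differed by 5.51 and then by -0.21 (edgeR adjusted p = 0.00273), at 429 CPM in mock 2, 398 in hpRNA 2, 353 in HT-DNA 2 and 359.7 in cGAMP 2, and without mock 2 the log2 fold change of -0.15 was not called (edgeR adjusted p = 0.0529). Ifih1, the gene of MDA5, differed by 4.27 and had a log2 fold change of -0.14 that was not called (edgeR adjusted p = 0.125).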

How the results depend on the processing

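Of the number-1 differences of 31 named genes, those of at least 0.1 in size kept their sign under another scaling or prior count and without 1 library, Tmem173 ran from -0.14 to 0.029 without 1 library, and 3 values moved by more than the spread between libraries: Ifnb1 to 4.14 and 1.43 with prior counts of 0.5 and 5, and Ypel3 to -1.29 with 5. The number of genes counted higher, 145, became 91 with a minimum mean of 5 CPM, 591 with no minimum and 334 at 1.5-fold, and 145 to 166 without 1 library. The number counted lower, 45, became 20, 236 and 286 in the same order and 51 to 69 without 1 library. Interferon-stimulated genes counted higher ranged from 59 to 63 and their median difference from 1.74 to 1.93 without 1 library. Within the pairs, prior counts of 0.5 gave 56 genes between HT-DNA 1 and cGAMP 1 and 70 between mock 1 and hpRNA 1, and a prior count of 5 gave 20 in the latter. Another scaling shifted the median of all genes by less than 0.01. Leaving out 1 library makes the rule of no overlap easier to meet, so the counts without 1 library can rise for that reason alone.

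In the number-2 libraries DESeq2 called 362 higher and 157 lower, in place of 646 and 419, and edgeR 601 to 693 and 336 to 383 without 1 library. Interferon-stimulated genes called higher were 86 of 113 with DESeq2 and 88 to 101 without 1 library. A lone library left on a side is assumed to vary like the other pair. Cgas, at 0.46, lost its call with DESeq2 (adjusted p = 0.0674). Without 1 library the log2 fold change of Ypel3 ran from -0.23 to 0.095, above 0 without cGAMP 2 (0.031) and hpRNA 2, and that of Mxd4 from -0.049 to 0.13, below 0 without HT-DNA 2 and mock 2 (-0.018), and none was called. The fit with the replicate block over all 8 libraries holds those that chose the sides, so its calls are no independent test. It called 367 of 13844 genes higher and 226 lower, with 69 of 108 interferon-stimulated genes among the former. Ccl5 changed sign to 0.86, Oasl1 to 2.01, Mxd4 to -0.69, Actb to 0.089 and Gapdh to 0.065, none of them called. The cause was not tested. Depth limits the interferon genes, with at most 13 counts in a number-1 library for Ifnb1.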

Other observations

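Of the 145 genes counted higher, 59 are in none of the lists. Apol9a and Apol9b, near-identical apolipoprotein L genes whose reads may be shared, stood at 4.60 and 1.65 CPM in mock 1 and 100.3 and 43.0 in cGAMP 1, differences of 4.30 and 4.38. Batf2, a basic leucine zipper factor, differed by 2.22. Plat, the tissue plasminogen activator, stood at 3.69 CPM in mock 1, 4.79 in hpRNA 1, 16.0 in HT-DNA 1 and 15.0 in cGAMP 1, a difference of 1.85, and had a log2 fold change of -1.13 in number 2 (edgeR adjusted p = 1.27e-06). These genes were chosen after their values were seen.

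Among the genes counted lower, and also chosen after their values were seen, Txnip, an inhibitor of thioredoxin and of glucose uptake, stood at 104 CPM in mock 1, 111 in hpRNA 1, 49.7 in HT-DNA 1 and 51.0 in cGAMP 1, a difference of -1.09. Fbxo32, the ubiquitin ligase atrogin-1, had the largest lower difference, -2.98, from levels under 5 CPM. Hbp1 and Pik3ip1 differed by -1.02 and -1.13.

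Some transcripts differed between HT-DNA 1 and cGAMP 1, and were named after their values were seen. The pseudogene Gm10095 stood at 130.3 CPM in HT-DNA 1 and 0.270 in cGAMP 1, and at 146 in G3-YSD 1. It was itself counted higher, on 2506 counts in HT-DNA 1 and 5 in cGAMP 1, so its difference rests on HT-DNA 1. Gm23935 stood at 1002 CPM in HT-DNA 1 against 286 in cGAMP 1, and the ribosomal RNA gene CT010467.1 at 1891 against 521. Srp54b stood at 35.3 CPM in cGAMP 1 against 8.94 in HT-DNA 1. Srp54b was also higher in cGAMP 2 than in HT-DNA 2, at 27.2 against 9.51 CPM.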
